A study of Homo sapiens with 4 samples.

Results

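Many human protein-coding genes have, beside their mRNAs, an annotated transcript in which part or all of an intron is kept. The transcripts described here are those of coding genes with exactly 1 row in the deposited table, where that row is of the retained-intron class of GENCODE release 29 and lies on chromosomes 1 to 22. The annotation, not the counts, chose them. There were 1383 of them among 106179 rows. Another 25395 retained-intron transcripts on these chromosomes belonged to coding genes with at least 2 rows. RNA-seq of total RNA gave estimated counts per transcript for 4 libraries from cells labelled HepG2, a line the labels class as liver hepatocellular carcinoma. Libraries 1 and 2 of the wild type came from untreated cells, and libraries 1 and 2 of the resistant group from HepG2 cells labelled oxaliplatin resistant. Oxaliplatin is a platinum drug that binds DNA. The labels give no dose, time or clone for the resistant cells, and they do not say whether libraries of a group were separate cultures. The p-values therefore set group differences only against the spread between libraries of a group, which may be technical. They reach no further than these libraries.

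During splicing, an intron is marked by a donor site at its 5′ end, nearly always beginning with GT, and an acceptor site at its 3′ end, nearly always ending with AG. When splicing does not remove an intron, or when a transcript ends inside it, intron bases stay in the RNA. Such RNAs often stay in the nucleus or are degraded, and retention is a known way to limit the amount of mRNA of a gene. Kept introns tend to be short and rich in G and C.

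Totals per library lay between 34898860 and 44063444 counts, and a count of 0 allows up to 3 counts, or 0.0660 to 0.0908 CPM (counts scaled to library size); such limits cover counting error only. Markers of the labelled cell type could be read only from noncoding rows of their genes. Of 10 hepatocyte markers 7 had such rows, and 6 of these (*TF*, *AFP*, *SERPINA1*, *FGB*, *TTR* and *AHSG*) were at 0 in all 4 libraries. Summed over the 7, the level was 0 to 0.222 CPM in the wild-type pair and 0 in the resistant pair. The 5 fibroblast markers summed to 4.94 to 7.54 CPM in the wild-type pair and 1.44 to 2.92 CPM in the resistant pair, with *COL1A2* at 0. The 3 endothelial markers with rows reached at most 0.0833 CPM and the 3 leukocyte markers at most 0.594 CPM, with *KDR*, *CD3E* and *MS4A1* at 0. The part of these levels in the results below was not tested.

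Where the intron bases sat differed among the 1383 transcripts. In 438 an exon ran past a donor site and stopped inside the intron, and in 440 an exon began inside an intron and ran through its acceptor site. In 106 both kinds of edge were found, in 363 at least 1 whole intron of a coding transcript of the gene was kept, and in 36 none of these was found. Genes with no intron in a coding transcript, such as *AL365205.1* and *AC068946.1*, could only fall in that last class. The following 40-base windows show the donor sites that the most abundant transcripts of the first kind, per length, ran through; the first 20 bases are the end of a coding exon, the capitals mark the first 6 bases of the intron, and the sequences were read from the GENCODE release 29 transcripts, and these windows were chosen after seeing the data. No sequence is shown for *PLEC*, which ranks among them by level.
*RNGTT* (ENST00000627296): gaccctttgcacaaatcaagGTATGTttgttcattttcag
*UBE2L3* (ENST00000496722): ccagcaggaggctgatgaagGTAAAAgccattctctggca
*BORCS5* (ENST00000543990): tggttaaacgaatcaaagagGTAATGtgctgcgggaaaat
*RPS10* (ENST00000480942): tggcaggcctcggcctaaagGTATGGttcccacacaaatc
*RPS12* (ENST00000484616): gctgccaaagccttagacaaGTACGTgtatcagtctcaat
*STX3* (ENST00000530498): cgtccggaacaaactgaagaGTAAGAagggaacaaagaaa
*LRP11* (ENST00000463728): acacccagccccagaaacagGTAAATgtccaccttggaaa

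The *RNGTT* transcript continued 359 bases past its donor site, that of *RPS10* 393 bases, that of *RPS12* 136 bases and that of *BORCS5* 100 bases. Over the 438 transcripts the median run past the donor was 279.5 bases (quartiles 161.5 and 449) into introns with a median length of 2924 bases, and 426 of them ended there. The intron began with GT in 430 of the 438. Among the 440 that began inside an intron, the median run before the acceptor was 192.5 bases, 434 did so in their first exon, and the intron ended in AG in 439. The 2 kinds lay in different parts of their genes, on a scale from 0 at the 5′ end to 1 at the 3′ end. The middle of the transcript had a median position of 0.31 for those past a donor and 0.81 for those before an acceptor (256 and 237 transcripts that passed the expression filter). Most of the first kind ended inside an intron and most of the second began inside one. The difference in position is therefore partly set by how the kinds were defined.

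Whole introns kept in a transcript are shown for 3 genes named below for their p, level or steadiness, whose kept introns of at most 300 bases run from GT to AG between coding exons. Capitals mark the first 6 and the last 3 bases of the intron.
*ASNA1* (GRCh38 chr19:12745526-12745608, plus strand): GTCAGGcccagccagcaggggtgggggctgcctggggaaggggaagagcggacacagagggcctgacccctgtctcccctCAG
*TK1* (GRCh38 chr17:78186819-78186928, minus strand): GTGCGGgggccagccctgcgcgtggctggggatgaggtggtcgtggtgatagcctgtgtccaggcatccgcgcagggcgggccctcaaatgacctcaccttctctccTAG
*SULT1A1* (GRCh38 chr16:28608389-28608477, minus strand): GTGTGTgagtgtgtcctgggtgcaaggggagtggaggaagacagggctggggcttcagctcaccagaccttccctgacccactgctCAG
*SULT1A1* (GRCh38 chr16:28608604-28608707, minus strand): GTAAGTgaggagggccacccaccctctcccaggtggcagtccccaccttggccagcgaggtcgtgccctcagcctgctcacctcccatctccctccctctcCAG

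These introns had 83, 110, 89 and 104 bases and a GC content of 71.1%, 67.3%, 61.8% and 67.3%. Over all transcripts, 598 distinct kept introns of at least 30 bases were found in 356 transcripts, where alternative introns that overlap count separately. Of these, 569 ran from GT to AG and 13 from GC to AG. Their median length was 324 bases (quartiles 165.25 and 704.25) and their median GC content 56.6%. The other 15264 introns of the same genes had a median length of 1680 bases (quartiles 545 and 4648). Lengths of up to 300 bases were found in 46.5% of kept and 15.8% of other introns. In 278 of 344 genes with both kinds, the kept introns had a shorter median than the others. An intron counted as kept only where it lay whole inside an exon of the transcript. Transcripts with a whole intron had a median length of 1497 bases, so long introns could rarely count as kept. The difference in length is therefore partly set by this definition.

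**Figure D1:**
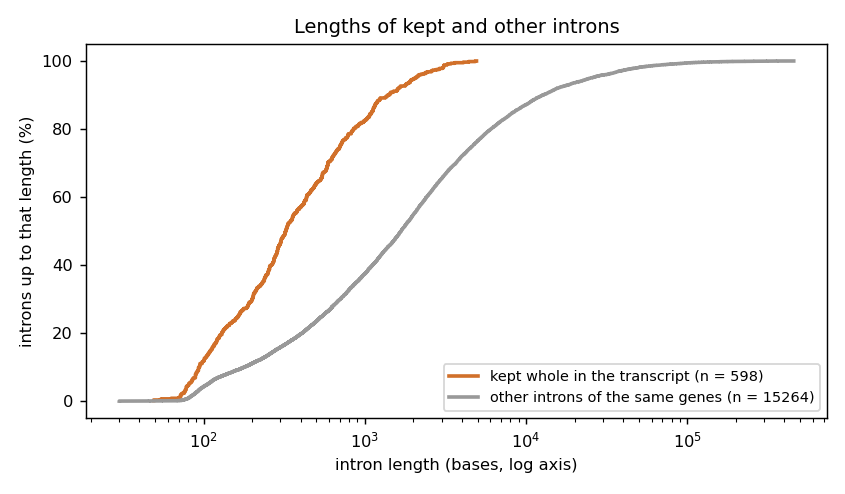
Cumulative share of introns (%) up to a given length (bases, log axis) for 598 introns kept whole and 15264 other introns of the same genes. The curve of the kept introns lies to the left, with medians of 324 and 1680 bases. Kept introns had to fit whole inside an exon of the transcript, which limits their length.

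Counts were found for most but not all of the transcripts. In 442 of 1383 all 4 libraries were at 0, in 107 the highest count was 1 to 9, and in 736 all 4 libraries had counts above 0. In 275 every library had at least 100 counts. The expression filter kept 771, and statements on tested transcripts cover only these. Their median level was 2.94 CPM (quartiles 1.18 and 9.54), beside 3.29 CPM over all 42393 transcripts tested. Together the 1383 transcripts held 1.13% and 1.12% of all counts of the wild-type pair and 1.36% and 1.27% of the resistant pair. The resistant libraries were both higher, with means of 1.13% ± 0.0130 and 1.31% ± 0.0688 (SD, n = 2); with 2 libraries against 2 no exact permutation test can go below p = 0.33. The 4 most abundant transcripts, of *UBE2L3*, *PRMT3*, *RNGTT* and *RREB1*, took 25.9% to 28.9% of these counts, and without them the shares were 0.841% and 0.810% for the wild-type pair and 0.993% and 0.900% for the resistant pair.

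Levels between genes are compared per kilobase of the spliced transcript. Transcripts that ran past a donor had the highest median, 6.96 CPM per kilobase over 256 tested (quartiles 2.25 and 20.2). The median was 2.66 for the 237 that began before an acceptor, 2.61 for the 55 with both edges and 1.93 for the 205 with a whole intron. The order of the first and the last was the same in each library: past a donor 6.49, 5.78, 6.54 and 5.86 CPM per kilobase in wild type 1 and 2 and resistant 1 and 2, whole intron 1.44, 1.56, 2.02 and 1.75. The transcripts with a whole intron were also longer, with a median of 1884 bases among the tested beside 610.5 bases, and without dividing by length the medians were 2.76 and 4.77 CPM. On that scale the whole-intron class lay above those before an acceptor (2.27 CPM) and with both edges (2.14 CPM). Among transcripts that overlapped no other gene, the medians were 6.39 per kilobase for 168 past a donor and 1.58 for 113 with a whole intron. Transcripts are not replicates of a condition, so no p is given for these differences.

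**Figure D2:**
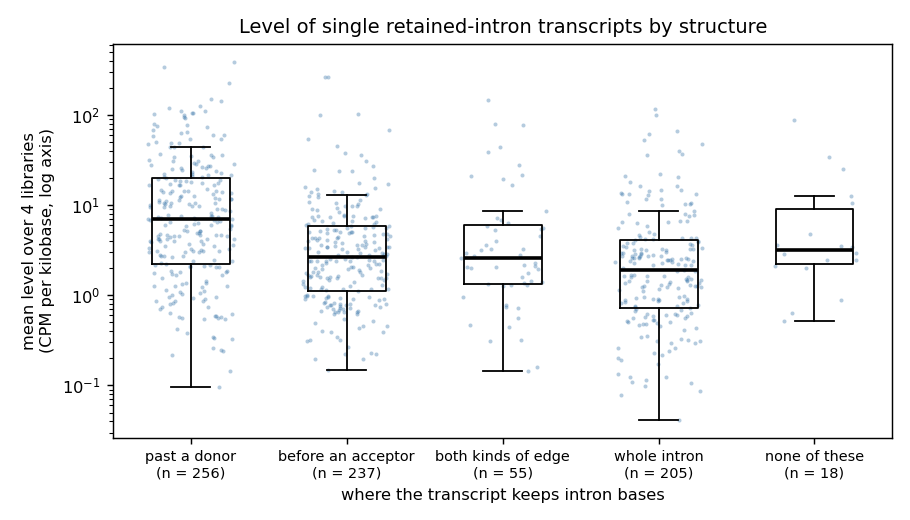
Mean level over the 4 libraries (CPM per kilobase, log axis) of the 771 tested transcripts by where they keep intron bases; points are transcripts, boxes give quartiles and median, whiskers reach 1.5 times the box. Transcripts past a donor have a median of 6.96 CPM per kilobase and those with a whole intron 1.93.

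Among the 12 highest levels per kilobase, 8 were of transcripts past a donor. The transcript of *RNGTT*, the mRNA capping enzyme, had 38625 and 12938 counts in the wild-type pair and 26858 and 47747 in the resistant pair, a mean of 389.4 CPM per kilobase. Its libraries differed within each group and the groups overlapped. The transcript of *UBE2L3*, a ubiquitin-conjugating enzyme (GRCh38 chromosome 22, 21567730 to 21624034, plus strand), had 42537, 38477, 52835 and 50714 counts in the same order, or 1172 ± 11.3 CPM in the wild-type pair and 1159 ± 4.30 CPM in the resistant pair (SD, n = 2). It was the steadiest of all transcripts with 100 counts in every library, and 69.1% of its bases lay in untranslated exons of the mRNAs of *UBE2L3*, so its reads cannot be told apart from theirs there.

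*PRMT3*, an arginine methyltransferase gene, had 16954 and 43317 counts against 66168 and 50836, and *PDK1*, a pyruvate dehydrogenase kinase gene, 6970 and 760 against 11571 and 6819. In both genes the wild-type libraries stood apart from each other and the intron bases lay before an acceptor. The transcript of *TEAD1*, a transcription factor gene of the Hippo pathway, had 5747 and 5637 counts against 9439 and 5764, with 88.7% of its bases in introns. *TK1*, the thymidine kinase gene whose kept intron is printed above, had 3538 and 1903 against 2480 and 3688 counts. *BORCS5*, of a complex that positions lysosomes, and *STX3*, a syntaxin of membrane fusion, had mean levels of 149.6 and 119.8 CPM per kilobase, and *LRP11*, a gene of the LDL receptor related family, 111.8 CPM per kilobase. For none of *PRMT3*, *PDK1*, *TEAD1*, *TK1* and *LRP11* did the groups separate.

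Most of the transcripts shared much of their length with mRNAs of the same gene. The median transcript had 749 bases in 2 exons, of which 44.4% were coding bases of an mRNA, 7.44% untranslated exon and 36.7% intron (medians taken separately). The median level was 1.64 CPM per kilobase in the 72 tested transcripts with at most 25% of their bases in mRNA exons, 3.27 from there to 50%, 3.77 to 75% and 2.90 in the 220 above. Spearman's rho between this share and log2 CPM per kilobase was 0.05 over the 771 transcripts, a description across transcripts that share libraries. In the same 4 classes the median absolute log2 ratio between the libraries was 0.50, 0.53, 0.69 and 0.77 for the wild-type pair. For the resistant pair it was 0.52, 0.46, 0.62 and 0.78, so the class above 75% had the highest value in both pairs. The highest count per transcript had medians of 158 in the first class and 162 in the last, and the length medians of 1830.5 and 737.5 bases. Another gene overlapped 466 of the 1383 transcripts, in 300 cases on the opposite strand, and the use of strand in counting is not given in the sources used here.

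Replicate libraries agreed to within about 1.6-fold for the median transcript, with a tail far beyond that. Among transcripts with at least 10 counts in a library of the pair, the median ratio was 1.57-fold in wild type (780 transcripts) and 1.5-fold in resistant cells (798). A difference over 2-fold was found in 33.6% and 31.2% with 0.1 CPM added to each value, and in 21.2% and 15.8% with 1 CPM added. Retained-intron transcripts of genes with at least 2 rows had medians of 1.57-fold and 1.48-fold, and other genes with 1 row, of any class, 1.72-fold and 1.60-fold. A count of 0 in a library and at least 100 in its partner occurred in 24 of the 442 transcripts that reached 100 counts in the wild-type pair (5.43%) and in 19 of 508 in the resistant pair (3.74%). The same occurred in 3.42% and 3.09% of the retained-intron transcripts of genes with more rows that reached 100 counts, and in 14.6% and 12% of such other single rows. These shares are descriptions, and their difference was not tested. In the 771 tested transcripts Pearson's r of log2(CPM + 0.1) was 0.75 between the wild-type libraries, 0.81 between the resistant libraries and 0.75 to 0.78 between libraries of different groups.

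**Figure D3:**
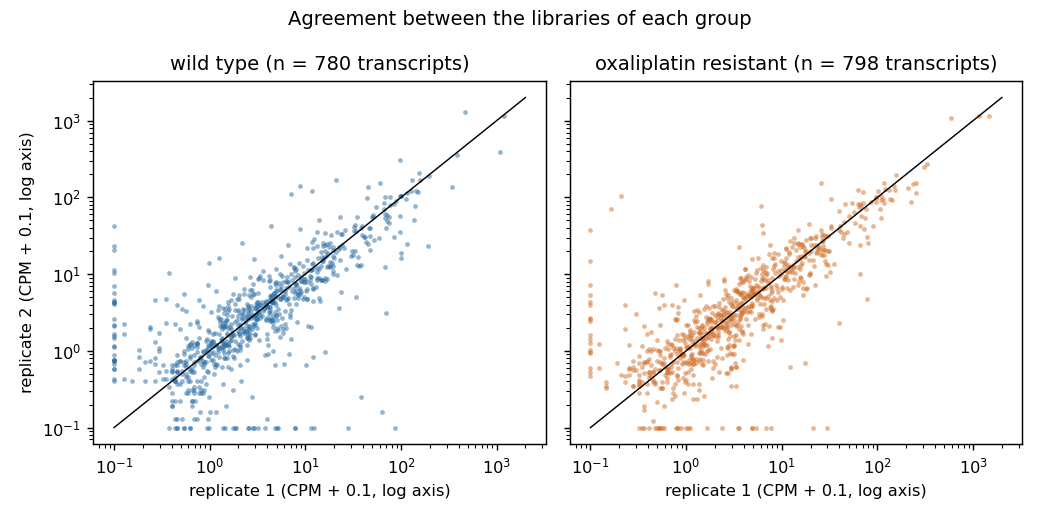
Level in replicate 2 against replicate 1 (CPM + 0.1, log axes) for transcripts with at least 10 counts in a library of the pair, 780 for the wild-type pair and 798 for the resistant pair; the line marks equal values. Most points follow the line, and points on the lower and left borders were at 0 in 1 library.

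The largest counts opposite a 0 in wild type belonged to *PLEC*, which encodes the cytoskeletal linker plectin, with 3144 and 0 counts in the wild-type pair and 5291 and 3726 in the resistant pair. *USF3* had 0 and 1384 against 1324 and 413 counts, *AL365205.1* had 995 and 0 against 694 and 680, *SLC6A16*, a solute carrier gene, 0 and 754 against 303 and 0, and *ZNF92*, a zinc finger gene, 0 and 677 against 282 and 1481. In each of these 5 the groups overlapped. Within the resistant pair, *LDAH*, a lipid droplet hydrolase gene, had 0 and 1667 counts and was at 0 in wild type. *FP565260.6* had 1346 and 0 (320 and 262 in wild type), *AC068946.1* 953 and 0 (424 and 866), *AC008878.1* 0 and 639 (2508 and 101) and *TMTC2* 347 and 0 (414 and 0). The transcripts of *AL365205.1*, *AC068946.1* and *AC008878.1* overlapped other genes on their own strand, so how reads were shared there is uncertain. Those of *PLEC* and *SLC6A16* each overlapped a microRNA gene on their strand. *AL365205.1*, *AC068946.1*, *AC008878.1* and *FP565260.6* were in the class with no intron placement found.

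At the other end, 8 transcripts with at least 100 counts in every library had nearly the same level in all 4. For *UBE2L3* the range was 0.03 on the log2 CPM scale and for *CMTM4*, a membrane protein gene, 0.10, with 102.4 ± 2.37 CPM in the wild-type pair and 98.2 ± 1.99 CPM in the resistant pair (SD, n = 2). *UTP18*, a gene of ribosomal RNA processing, *HNRNPAB*, an RNA-binding protein gene, and *ANXA8L1*, an annexin gene with near-identical copies, had ranges of 0.14, 0.14 and 0.18. *AGPS*, of ether lipid synthesis, *DERL1*, of protein export from the endoplasmic reticulum, and *SULT1A1*, the sulfotransferase gene whose introns are printed above, had ranges of 0.19, 0.20 and 0.23. *SULT1A1* has near-identical copies, so its share of reads is uncertain.

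No transcript passed the comparison of resistant with wild-type cells. edgeR's quasi-likelihood test with Benjamini-Hochberg adjustment over all 42393 transcripts called 0 of the 771 (smallest adjusted p = 0.329), beside 0% of all transcripts. An unadjusted p under 0.05 was found for 40 of the 771, or 5.19%, beside 7.74% of all transcripts. Of these, 26 had a higher mean in resistant cells (3.37%, beside 4.56%) and 14 a lower one (1.82%, beside 3.18%). The groups did not overlap in 302 transcripts, 39.2% beside 40.3% of all transcripts. Values were higher in resistant cells in 180 (23.3%, beside 21.4%) and lower in 122 (15.8%, beside 18.9%). The median log2 fold change was 0.07 (quartiles -0.40 and 0.61), beside 0.02 over all transcripts (quartiles -0.58 and 0.63). limma-voom also called 0, with 40 at an unadjusted p under 0.05 (5.19%, beside 7.32% of all transcripts). DESeq2 called 19 of 854 with an adjusted p, or 2.22%, beside 6.11% of all transcripts. In 12 of these 19 the libraries of a group were both at 0, and the 19 included *LDAH*, whose counts came from 1 library. The number at an unadjusted edgeR p under 0.05 changed when 1 library was left out, as did the number tested and the share over all transcripts. The total of 40 came to 18 of 807 without resistant replicate 1 (2.23%, beside 6.63% of all transcripts) and to 25 of 810 without resistant replicate 2 (3.09%, beside 6.42%).

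**Figure D4:**
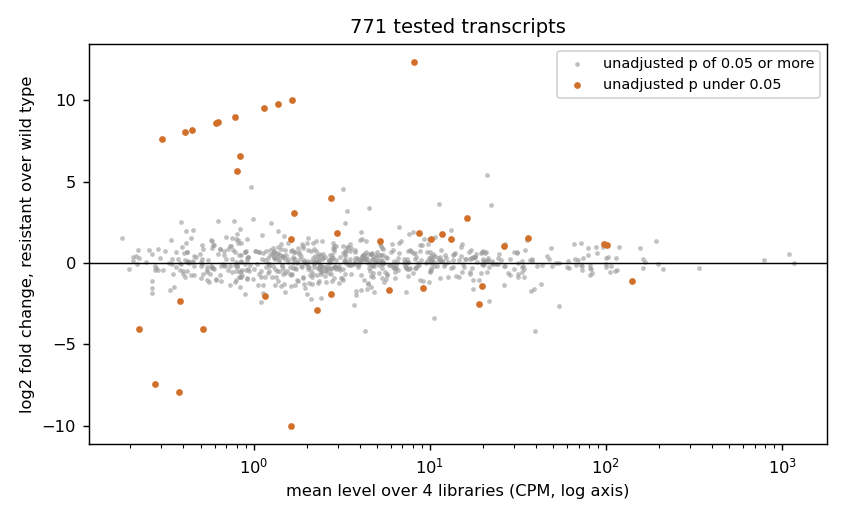
Log2 fold change of resistant over wild-type cells against the mean level (CPM, log axis) for the 771 tested transcripts; coloured points have an unadjusted edgeR p under 0.05 and none passed adjustment. Fitted fold changes beyond 7 in either direction belong to transcripts at 0 in 1 group, where the value depends on the fit and is no measured fold.

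None of the next transcripts passed in edgeR, and DESeq2 called *TIMMDC1*, *MRFAP1L1* and *GTF2A1* (adjusted p = 8.5e-07, 3.1e-06 and 0.029). They are the 12 lowest p-values among those with the higher mean in the resistant pair, with at least the median level and no overlap of the groups. The transcript of *TIMMDC1*, an assembly factor of respiratory complex I (ENST00000469324, GRCh38 chromosome 3, 119500374 to 119513719, plus strand), had 0 counts in both wild-type libraries and 498 and 947 in resistant cells. Its mean of 16.3 ± 7.52 CPM (SD, n = 2) was at least 186.9-fold higher than a limit of 3 counts per library (edgeR adjusted p = 0.329). That of *MRFAP1L1* (chromosome 4, 6707701 to 6709827, minus strand) had 147 and 148 against 1186 and 1349 counts, or 4.28 ± 0.283 and 28.4 ± 3.30 CPM, with 2.73 ± 0.39 (SE) as the log2 fold change and an edgeR adjusted p of 0.329. It kept a whole intron, and its libraries within a group lay far closer than the groups, which the choice by smallest p favours. Of its bases, 54.5% lay in untranslated exon and 17.9% in coding bases of the mRNAs of *MRFAP1L1*. Reads from those bases cannot be told apart from reads of the mRNAs. For *TIMMDC1* the resistant libraries differed from each other, at 10.9 and 21.6 CPM.

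*GTF2A1*, a subunit gene of the general transcription factor TFIIA, had 202 and 162 against 963 and 661 counts, 3.45-fold higher in CPM, and *PCF11*, of mRNA cleavage and transcription termination, 175 and 199 against 535 and 798, 2.75-fold higher. *UBN2*, whose protein works with a histone chaperone, had 53 and 36 against 168 and 245, with 91.2% of the transcript in untranslated exon of its mRNAs. *MRPL48*, a mitochondrial ribosomal protein gene, had 479 and 774 against 2308 and 2475 counts, 2.92-fold higher. None of these 4 passed in edgeR (adjusted p = 0.410 to 0.602 for *GTF2A1*, *UBN2*, *MRPL48* and *PCF11*).

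*ATP6V1B2*, a subunit of the proton pump of lysosomes, had 1950 and 2446 against 6874 and 5527 counts, or 64.1 ± 14.1 and 138.5 ± 17.8 CPM (SD, n = 2). *IFI30*, a lysosomal thiol reductase gene, had 94 and 105 against 302 and 365 counts, *SNX15*, a sorting nexin gene, 599 and 582 against 1473 and 1731, and *ASNA1*, which delivers tail-anchored proteins to membranes, 313 and 176 against 780 and 946. Means in CPM were 2.16-, 2.58-, 2.10- and 2.76-fold higher in resistant cells. These 4 transcripts all kept a whole intron, and the kept intron of *ASNA1* is the 83-base one printed above. *PCDH10*, a protocadherin gene, had 2575 and 1624 against 5285 and 6815 counts, and *C11orf74* 175 and 94 against 502 and 700. The *C11orf74* transcript overlapped *RAG2* on the opposite strand, that of *MRPL48* a gene on the opposite strand, those of *IFI30*, *SNX15* and *PCF11* another gene on their own strand, and that of *GTF2A1* genes on both strands.

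Of the 12 chosen likewise in the other direction, with the lower mean in the resistant pair, the smallest p belonged to *RPS26*, a ribosomal protein gene of the small subunit (ENST00000548590, chromosome 12, 56042140 to 56044223, plus strand). It had 868 and 1097 counts in the wild-type pair and 483 and 485 in the resistant pair, or 28.6 ± 6.44 and 10.8 ± 0.305 CPM (SD, n = 2), 2.64-fold lower (edgeR adjusted p = 0.511). *RPS12* had 3597 and 3424 against 2557 and 2843 counts, 1.68-fold lower. Ribosomal protein genes have many processed pseudogenes, so how reads were shared is uncertain, and the *RPS12* transcript overlapped 3 small nucleolar RNA genes on its strand.

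*BTBD7* had 7097 and 6258 against 4861 and 3135 counts, 193.2 ± 5.34 and 89.1 ± 25.1 CPM, and *GDPD1*, a phosphodiesterase gene, 2705 and 1527 against 913 and 1297. *CDT1*, of replication licensing, had 1190 and 1436 against 901 and 435, and *DFFB*, the nuclease that cuts DNA in apoptosis, 342 and 279 against 82 and 164. *KYNU*, the kynureninase gene, had 501 and 1689 against 306 and 208 counts, and *SOCS7*, of the suppressor of cytokine signalling family, 1213 and 161 against 132 and 35. In *KYNU*, *SOCS7*, *GDPD1* and *MT1X* the ratio of CPM between the wild-type libraries was larger than that between the nearest libraries of the 2 groups. The same held for the resistant libraries of *CDT1* (19.8 and 9.91 CPM, with 33.0 in the nearest wild-type library) and *SOCS7* (2.90 and 0.797 CPM, with 4.87). *MT1X*, a metallothionein gene, had 175 and 260 against 140 and 94, *EMP2* 1401 and 1392 against 1102 and 926, *ADPRM* 527 and 418 against 150 and 263, and *TMEM38A*, a cation channel gene, 1179 and 658 against 506 and 283. The transcripts of *KYNU* and *ADPRM* overlapped genes on the opposite strand, and those of *MT1X* and *EMP2* another gene on their own strand. None of the 12 passed in edgeR (adjusted p = 0.511 to 0.761) or in DESeq2, and *RPS26*, *BTBD7*, *ADPRM*, *KYNU* and *DFFB* had an unadjusted p under 0.05.

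A few transcripts were counted in 1 group alone. In 10 of 1383, or 0.723%, both wild-type libraries were at 0 and both resistant libraries had at least 10 counts, beside 1.04% of all rows. In 3, or 0.217%, it was the reverse, beside 0.449%. After *TIMMDC1*, the highest counts in resistant cells alone were 132 and 162 for *CALML4*, 141 and 106 for *TNFAIP6*, a hyaluronan-binding protein gene, 113 and 92 for *AL020996.2*, and 55 and 85 for *NEK5*, a kinase gene. Against a limit of 3 counts per library these were at least 37.9-, 31.7-, 26.3- and 18.1-fold higher. *SULT1E1*, the oestrogen sulfotransferase gene, had 66 and 155 counts in wild type alone and *SPDYE3* 23 and 29, at least 48.6- and 11.3-fold lower in resistant cells. *SPDYE3* has near-identical copies. Its transcript overlapped a gene on the opposite strand, and those of *CALML4*, *TNFAIP6* and *AL020996.2* overlapped genes on both strands. None of the named transcripts passed in edgeR (adjusted p = 0.329 to 0.349), and DESeq2 called all 7, *TIMMDC1* included. The smallest unadjusted p of all 771 belonged to *MAFF*, a small MAF transcription factor gene named after its values were seen, with 1 and 1 counts in the wild-type pair and 58 and 83 in the resistant pair.

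**Figure D5:**
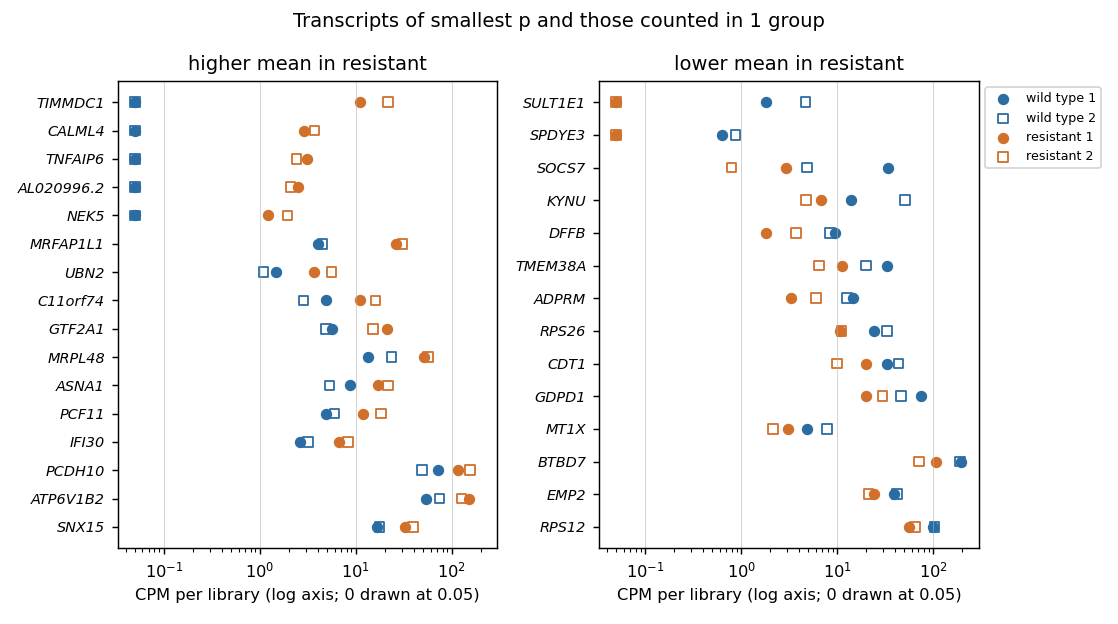
CPM per library (log axis, 0 drawn at 0.05) for the transcripts of smallest p in each direction and those counted in 1 group; filled circles are replicate 1 and open squares replicate 2. The groups do not overlap in any of these transcripts, by the rule that chose them, and *SOCS7* and *KYNU* show the widest wild-type pairs.

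Gene lists gave no member past the test (edgeR, adjusted over all transcripts), and the counts below stand beside non-overlap of 21.4% higher and 18.9% lower over all transcripts. The list of mitochondrial ribosome and translation had 12 members, all tested, with a median log2 fold change of 0.60, 5 with higher and 0 with lower non-overlapping values. Besides *MRPL48* these included *MRPS12*, with 19 and 15 against 40 and 61 counts, and *MRPS7*, with 13 and 18 against 34 and 40. *MRPL46* had 399 and 274 against 512 and 470 counts, while *MRPL21* had 513 and 144 against 285 and 375. Cytosolic translation had 11 tested of 12, a median of -0.20, and 0 higher and 3 lower, namely *RPS26*, *RPS12* and *RPS10*. *RPS10* had 4607 and 4007 against 3861 and 3854 counts, or 124.6 ± 4.65 and 86.3 ± 2.07 CPM (SD, n = 2). *RPL32*, with 173 and 237 against 289 and 294 counts, and *EIF3A*, an initiation factor gene with 607 and 412 against 639 and 904, did not share that pattern.

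The DNA repair list had 7 members, all tested, with a median log2 fold change of -0.68 and 3 lower and 0 higher among non-overlapping ones. Its members were *ALKBH2*, *ATRIP*, *CHEK1*, *FANCL*, *HUS1*, *NEIL2* and *UNG*, so it does not stand for the repair of platinum lesions. *CHEK1*, a checkpoint kinase gene, had 605 and 823 against 157 and 989 counts, so its resistant libraries lay on both sides of the wild type. *FANCL*, a Fanconi anaemia ubiquitin ligase gene, had 283 and 233 against 397 and 284, and *HUS1*, of the checkpoint clamp, 98 and 179 against 102 and 125. *ALKBH2*, of alkylation repair, had 76 and 55 against 35 and 42, and *NEIL2*, a glycosylase gene, 120 and 126 against 30 and 109. Of glutathione, thioredoxin and platinum handling, 6 of 6 were tested, with a median of 0.07 and 1 higher and 1 lower. *NQO1*, a quinone reductase gene, had 137 and 129 against 359 and 61 counts, and *ATOX1*, a copper chaperone gene, 74 and 98 against 106 and 145. The p53 and apoptosis list had 4 tested of 4, a median of 0.23, 1 higher and 0 lower: *PMAIP1*, which encodes NOXA, had 48 and 0 against 355 and 192 counts, *CASP9* 573 and 262 against 279 and 441, and *BAD* 360 and 193 against 402 and 197.

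Of the hepatocyte products, 9 genes had such a transcript and 1 was tested. *AHSG*, *AMBP*, *CYP3A4*, *F5*, *G6PC*, *KNG1* and *SERPINA5* were at 0 in all 4 libraries, *VTN* had 7 and 1 against 8 and 23 counts, and *CYP2D6*, which has near-identical copies, 44 and 82 against 31 and 0. The transcript of *KRT80*, an epithelial keratin gene named after its values were seen, had 4749 and 5531 against 7091 and 8534 counts. Other keratin genes had such a transcript too, among them *KRT6C* and *KRT73*. Their values are not given here, so *KRT80* does not tell the type of the cells. The lipid and sterol list had 6 tested of 8 (median 0.06, 2 higher, 0 lower), with *ACSL1*, an acyl-CoA synthetase gene, at 1131 and 582 against 991 and 1063 counts, *ACADS* at 375 and 207 against 283 and 570, and *DHCR7*, of cholesterol synthesis, at 32 and 461 against 22 and 169. The list of fibroblast, endothelial and leukocyte markers had 0 members.

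In the spliceosome and RNA processing list, 13 of 13 were tested, with a median of 0.07, 4 higher and 1 lower. *LSM12* had 155 and 1379 against 2952 and 430 counts, each pair far apart, and *DHX33*, a helicase gene, 430 and 459 against 539 and 465. For proteasome and ubiquitin genes, 20 of 25 were tested (median 0.16, 6 higher, 2 lower), among them *RNF115*, with 1217 and 1184 against 1861 and 1832 counts, and *OTUD7A*, with 1611 and 4491 against 6085 and 4206. The solute carrier list, whose symbols all begin with SLC, had 16 tested of 41 (median 0.30, 5 higher, 1 lower). It also held genes that are not carriers, among them *SLC7A6OS*, *SLC4A1AP* and *SLC9A3R1*, so its counts do not stand for carriers alone. *SLC19A2*, a thiamine transporter gene, had 127 and 106 against 326 and 809 counts and *SLC7A6OS* 776 and 1165 against 1401 and 872. ABC transporters and ATPases had 2 tested of 5, *ATP6V1B2* and *ATP5PF*, the latter with 240 and 27 against 359 and 263. The respiratory chain had 8 tested of 11 (median -0.10, 0 higher, 2 lower), with *NDUFS4* at 693 and 574 against 1145 and 789, *NDUFS1* at 322 and 298 against 390 and 317 and *COX7A2* at 285 and 243 against 274 and 517.

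Zinc finger genes formed the largest list, with 43 tested of 62, a median log2 fold change of 0.16 and 6 higher and 6 lower. *ZKSCAN1* had 832 and 504 against 1040 and 831 counts and *ZKSCAN2* 352 and 280 against 715 and 388. Membrane traffic had 16 tested of 18 (median 0.10, 5 higher, 2 lower), with *RAB7A*, of late endosomes, at 3072 and 994 against 3341 and 2337. Cell cycle and mitosis had 12 tested of 17 (median 0.19, 1 higher, 1 lower). That list also held *CDC42EP3*, *KIF5A*, *KIF13B* and *KIF21B*, so it does not stand for the cell cycle alone. *CEP44*, of centrosomes, had 1689 and 1021 against 1308 and 1374 counts, *NCAPH*, a condensin gene, 368 and 712 against 673 and 1116, and *E2F7*, a transcription factor gene, 778 and 316 against 789 and 849.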

How the data were processed

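The deposited values are estimated counts, whole numbers with 1 column per library, a unit read from the values themselves. Which aligner, counter and annotation the authors used is not given in the sources used here. As genome build, mm9 (mouse) is named per the submitters' processing notes, but 103347 identifiers are human Ensembl ones. Names, classes and positions came from GENCODE release 29 on GRCh38, which matched 84072 rows; 19275 Ensembl identifiers were unmatched and may belong to the genes described. Kept introns were introns of coding transcripts of the gene that lay whole inside an exon. CPM values use trimmed mean of M-values scaling in edgeR 4.0.16 (R 4.3.3), with its expression filter at a minimum count of 10. The quasi-likelihood test was two-sided, fitted on all 4 libraries and adjusted by Benjamini-Hochberg at 0.05. It was tested on simulated data. limma 3.58.1 and DESeq2 1.42.0 were alternatives. Transcripts named were the 12 of highest level per kilobase, up to 12 of smallest p in each direction at or above the median level without overlap of the groups, the 8 steadiest, the 5 highest at 0 in 1 library of each pair or in 1 group, and the 3 most abundant of each list. *MRPS12*, *MRPS7*, *RPL32*, *EIF3A*, *ALKBH2*, *NEIL2*, *KRT80* and *MAFF* fall outside this rule and were named after their values were seen. Some transcripts that the rule names are not reported here. Kept introns of up to 300 bases were to be printed for at least 4 transcripts named by p, level or steadiness, and 3 of these had one from GT to AG between coding exons, a restriction added later. The members and lists were chosen with earlier results of these data known. Replicate numbers are in the labels, but nothing there pairs the libraries.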

Additional observations from a re-analysis of the deposited data

How the results depend on the processing

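The number of transcripts past the threshold was 0 in edgeR under every scaling, filter, gene-level, blocked and leave-one-out run and in limma-voom, and 19 in DESeq2. Those at an unadjusted p under 0.05 were 40 (26 higher, 14 lower) and came to 18 with the replicate number as a block (12 higher, 6 lower; 2.33%, beside 4.63% of all transcripts). The same-numbered libraries did not deviate together (correlation -0.02 over the 771 transcripts, 0.01 over all). With 2 libraries a group this cannot show whether they shared a culture, day or batch. Leaving out 1 library, where the lone library of a group is assumed to vary like the other group, gave 18 to 55 in all (2.23% to 6.72%, beside 6.42% to 9.15% of all transcripts), 6 to 42 higher and 10 to 13 lower, with 0 past the threshold and a median log2 fold change of 0.05 to 0.19 (over all transcripts -0.05 to 0.19). With no filter on low counts, 35 of 941 had an unadjusted edgeR p under 0.05 (3.72%, beside 5.38% of all transcripts), and 9 of these were lower in resistant cells. The median absolute log2 ratio between the wild-type libraries was 0.66 and came to 0.42 with a pseudocount of 1 CPM in place of 0.1, since a larger pseudocount shrinks ratios of low values; in resistant cells it was 0.59 and 0.39. No log2 fold change of the 31 transcripts followed reversed in any run, and DESeq2 put 9 of them past the threshold. These 31 were chosen from the same data for groups that did not overlap. A reversed sign was therefore hardly possible, and the unchanged signs are no check of them. The 2 checks on members without gene overlap by form and on shares without the 4 most abundant were chosen after seeing the data. With 2 libraries a group and a biological coefficient of variation of 0.970, a count of 0 does not show that nothing changed.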
